A study of Mus musculus with 4 samples.

Results

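The 94 potassium channel genes were all protein-coding mouse genes whose symbol starts with Kcn in the GENCODE M21 annotation of GRCm38, out of 21938 protein-coding genes. They were taken by name and not by a measured value, though the set was chosen with earlier results of these data known. The set held 40 voltage-gated channel genes (Kcna to Kcnd, Kcnf to Kcnh, Kcnq, Kcns and Kcnv), 8 calcium- or sodium-activated channel genes (Kcnma, Kcnn, Kcnt and Kcnu), 15 inward rectifier genes (Kcnj), 14 two-pore genes (Kcnk) and 17 genes grouped as auxiliary (Kcnab, Kcne, Kcnip, Kcnmb and Kcnrg). Each was followed in single-nucleus chromatin accessibility profiles from 2 cortex and 2 hippocampus libraries. The nuclei came from mice of genotype Dlx6aCre;Sun1/sfGFP at postnatal day 30, and GFP-positive nuclei had been sorted. Dlx6aCre drives recombination in forebrain inhibitory neurons and their progenitors, and Sun1/sfGFP marks the nuclear envelope of cells in which Cre has acted, so every library shares both alleles and the sort. The labels do not say whether the 2 libraries of a brain region came from separate animals, and the p-values therefore measure the spread between these libraries, which may be technical.

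Potassium channels set the resting potential of neurons, shorten their action potentials and limit how fast they can fire. Voltage-gated channels open on depolarisation, calcium-activated channels follow calcium entry during spikes, inward rectifiers and two-pore channels carry much of the current at rest, and auxiliary subunits change the gating or the transport of the pore-forming subunits. Interneuron classes are known for different sets of these channels: fast-spiking Pvalb cells rely on channels of the Kcnc family for brief spikes, whereas A-type channels of the Kcnd family and small-conductance Kcnn channels shape slower and adapting firing. The assay counts transposase cut sites in open chromatin. It does not measure RNA or current.

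A gene's window ran from 2 kb before its start to its end. Its value was the number of cut sites in a library's own peaks that touch this window, scaled to the total of cut sites in all peaks of that library (CPM). To compare genes with each other the CPM was divided by the length of that window in kb. Peaks count whole, so cut sites beyond the edge of a short window raise its value per kb. Each library had its own peak calls, and the libraries differed in depth. Between 2355 and 5576 nuclei and between 61965 and 157220 peaks were present per library, with 32005984 to 117290059 cut sites. The median nucleus of cortex replicate 1 held 47236 cut sites, against 7352 to 14917 in the other libraries, and cortex replicate 2 had the fewest peaks, with 33.4 Mb covered against 62.1 to 101 Mb elsewhere. Between 11 and 47 barcodes were shared by any pair of libraries. As a check of the sort, the GABA synthesis genes Gad1 and Gad2 were at 188 to 259.5 and 60.5 to 161 CPM in the libraries, and the summed CPM of 7 excitatory marker genes was 74.1 to 122, with Slc17a7 at 16.5 to 33.4 and Neurod6 at 0 in every library. Oligodendrocyte lineage, microglia and astrocyte lists summed to 230 to 318, 204 to 265 and 116 to 156 CPM. Most of the microglial sum was Cx3cr1, at 165 to 207 CPM, while Aif1 was at 0 in every library. A value of 0 means that no peak was called there. These sums hold different genes and are not scaled for length.

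Potassium channel genes were widely accessible in these nuclei. Of the 94, 72 (76.6%) had cut sites in every library, against 67.4% of all protein-coding genes, and their median level was 0.817 CPM per kb against 0.685. Their windows were also longer, with a median of 32.8 kb against 19.4 kb. The annotated start lay in a peak for 67, 49, 56 and 57 of the 94 genes in cortex replicates 1 and 2 and hippocampus replicates 1 and 2, which was 71.3%, 52.1%, 59.6% and 60.6%. Over all genes these shares were 58.1%, 48.6%, 54.9% and 54.4%. In all, 49 starts lay in a peak of every library and 27 in a peak of none. No cut sites were counted in any library for 5 members, Kcne1l, Kcnj1, Kcnk18, Kcnv2 and Kcnrg, which means that no peak was called in their windows. Another 3 had a peak in a single library: Kcnj13 with 22 cut sites and Kcnk16 with 17 in hippocampus replicate 1, and Kcnmb1 with 60 in cortex replicate 1. These 8 were too low to test. The windows of 17 members overlap a protein-coding gene that is no member, and the Kcnmb1 window overlaps Kcnip1. Cut sites in such overlaps cannot be assigned to either gene.

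**Figure D1:**
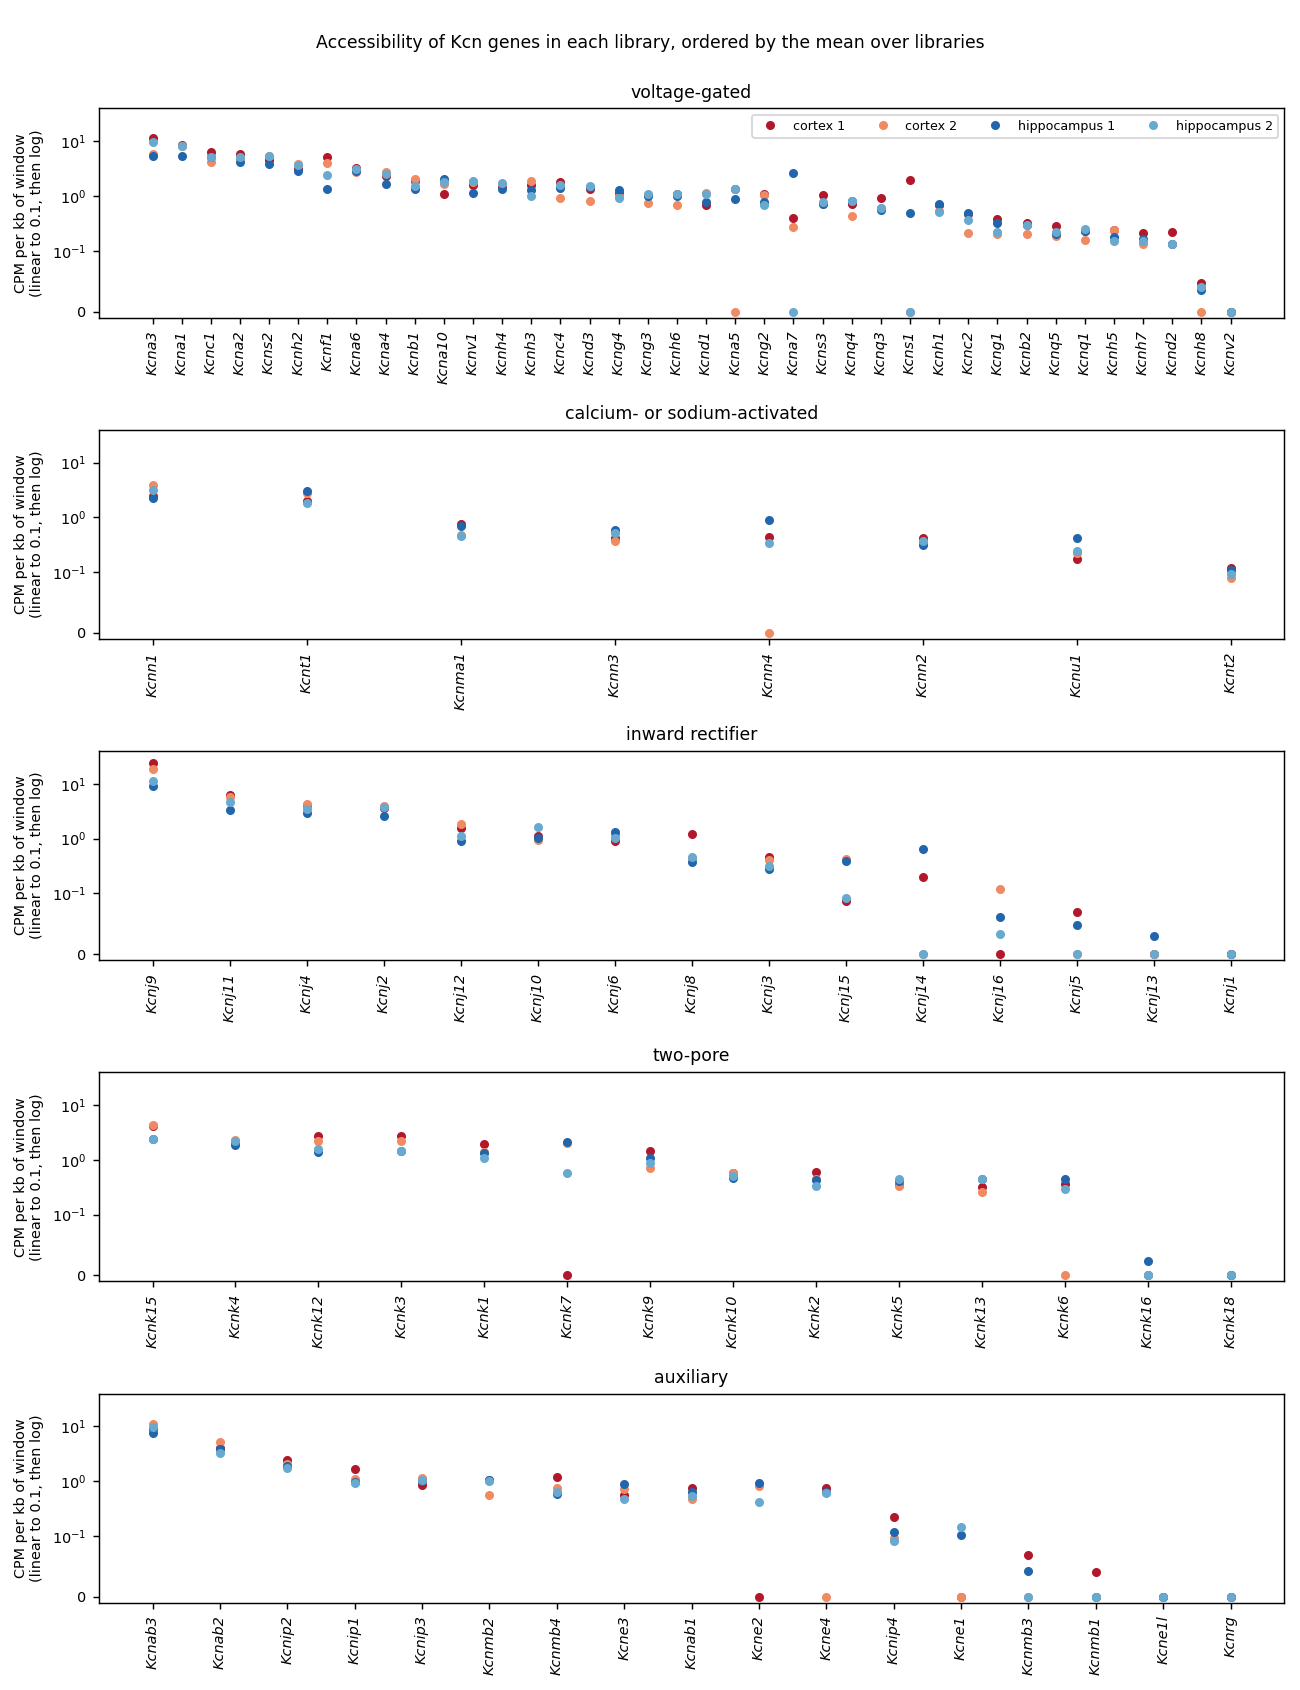
Accessibility of Kcn genes in CPM per kb of window (y axis, linear to 0.1 and logarithmic above), with 1 panel per role group, genes ordered by their mean over the libraries and 1 point per library. Most genes differ more from one another than the libraries of a gene do, and Kcnj9 stands highest with cortex points above hippocampus points.

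Among the voltage-gated genes the levels ranged from 0 to 8.11 CPM per kb. Kcna3, a lymphocyte and axonal delayed rectifier, was at 11.6, 5.76, 5.37 and 9.67 CPM per kb in cortex replicates 1 and 2 and hippocampus replicates 1 and 2. Kcna1, an axonal low-threshold channel, was at 8.61, 8.31, 5.36 and 8.15. The means of both lay within one another's spread over libraries (8.11 ± 3.04 and 7.61 ± 1.51, SD, n = 4). Kcnc1, a fast delayed rectifier of fast-spiking cells, and Kcna2 were lower, at 5.21 ± 0.968 and 5.03 ± 0.692 CPM per kb (SD, n = 4). At the low end stood Kcnd2, an A-type channel with a window of 516 kb, at 0.154 ± 0.0438, and Kcnh8 at 0.0307 ± 0.0211.

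The calcium- and sodium-activated genes lay lower per kb. Kcnn1, a small-conductance channel, had a mean of 2.92 ± 0.714 CPM per kb (SD, n = 4), and Kcnt1, a sodium-activated channel, had 2.42 ± 0.598. Kcnma1, the pore subunit of the large-conductance BK channel, had only 0.584 ± 0.148 CPM per kb but drew 537, 342, 496 and 324 CPM in the 4 libraries over its 727-kb window. Kcnn2, Kcnu1 and Kcnt2 were the lowest, at 0.364, 0.264 and 0.103 CPM per kb. The Kcnu1 window, a sperm channel gene, overlaps Ash2l.

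The inward rectifiers had the widest range. Kcnj9, a subunit of the G protein-gated inward rectifiers, was the highest of all 94 genes at 24.2 and 18.5 CPM per kb in cortex and 8.98 and 11.1 in hippocampus. The peak of cortex replicate 1 runs past the Kcnj9 window, so its value includes cut sites outside that window. Kcnj9 was followed by Kcnj11, the pore of the ATP-sensitive channel, at 4.94 ± 1.31 and by Kcnj4, a classical strong rectifier, at 3.70 ± 0.637 CPM per kb (SD, n = 4). Kcnj10, the glial rectifier, was at 1.10, 0.923, 1.04 and 1.61 CPM per kb. Kcnj5 and Kcnj13 had 0.0291 and 0.00733 CPM per kb on average. Of the two-pore genes, Kcnk15, Kcnk4 and Kcnk12 were highest at 3.30 ± 1.05, 2.14 ± 0.212 and 1.99 ± 0.630, while Kcnk6 had 0.274 ± 0.192. Kcnk4 overlaps Catsperz. Among auxiliary genes the cytoplasmic beta subunits led, with Kcnab3 at 9.23 ± 1.42 and Kcnab2 at 4.08 ± 0.823, followed by the A-type channel partner Kcnip2 at 2.03 ± 0.302 CPM per kb. Their windows overlap Trappc1, Nphp4 and Armh3 in that order. Kcnip1 drew 598, 409, 356 and 345 CPM over a 366-kb window. Summed over the 94 genes, the libraries held 7991, 6447, 6562 and 6279 CPM.

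The first comparison asked whether the channel genes differed between cortex and hippocampus. No member passed an adjusted p of 0.05 in edgeR's quasi-likelihood test with Benjamini-Hochberg adjustment over 16326 genes, in which 20 genes (0.123%) passed. At an unadjusted p under 0.05 there were 8 of 86 members (9.30%, against 3.07% of all genes tested). Lower in hippocampus were 7 of them (background 1.10%), Kcnj9, Kcnf1, Kcnk12, Kcnk15, Kcnk3, Kcnj12 and Kcnip4, and 1 was higher (background 1.97%), Kcnu1. The cortex and hippocampus libraries did not overlap for 32 of the 86 members, against a background of 21.8%, and 24 of these were lower in hippocampus, against 11.1%. Over common regions, where every library had a peak, 0 of 71 members passed (background 0.0137%), 14 had an unadjusted p under 0.05 (19.7%, against 3.89%) and 11 of these were lower in hippocampus (15.5%, against 1.65%). DESeq2 called 4 members (1.74% of all genes), all lower in hippocampus (0.46% of all genes): Kcnj9 (adjusted p = 0.00718), Kcnf1 (0.0319), Kcnk15 (0.00624) and Kcnj12 (5.6e-05). Single libraries changed the calls. Without cortex replicate 1, 6 members passed (background 4.31%): Kcnj9 (-0.88), Kcnd3 (0.87) and Kcnmb2 (0.88), and Kcnn4, Kcna5 and Kcnh8, which had no cut sites in cortex replicate 2. Without cortex replicate 2 there were 2 (background 1.27%), Kcnj9 and Kcnip4, and without either hippocampus library there were none.

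By role group, the medians of hippocampus against cortex were lowest for the inward rectifiers and then the two-pore genes. The median log2 fold change, hippocampus minus cortex, was -0.39 over 13 inward rectifiers and -0.21 over 12 two-pore genes, with 10 of 13 and 8 of 12 below 0. It was -0.15 over 14 auxiliary genes, -0.08 over 39 voltage-gated genes and -0.0035 over 8 calcium- or sodium-activated genes, beside -0.10 over all genes tested. Scaling by TMM instead of by library totals moved the median of all genes to -0.01 and that of the calcium- or sodium-activated genes to 0.10, while the inward rectifiers stayed at -0.32 and the two-pore genes at -0.14. These medians are descriptions of unequal gene sets, and no group was tested against another. Bulk sums cannot tell fewer nuclei of a type from less accessibility per nucleus. Interneuron markers also differed by brain region. The summed CPM of 5 CGE-lineage genes was 109 to 180 in cortex and 219 to 265 in hippocampus, mostly through Adarb2 (55.2 and 31.1 against 168 and 78.7), and the other 4 (Prox1, Nr2f2, Htr3a and Sp8) overlapped between brain regions. The sum of 6 Pvalb-class genes was 221 to 305 in cortex and 171 to 178 in hippocampus, and that of 6 Sst-class genes was 219 to 274 and 287 to 291. Within the Sst-class list the genes went different ways. Sst itself was lower in hippocampus (22.2 and 17.2 against 10.5 and 7.55). Grin3a (71.7 and 53.5 against 98.3 and 94.5) and Elfn1 (141 and 124 against 149 and 146) were higher there. Chodl, Cbln4 and Myh8 overlapped between brain regions. The part of any of these in the channel genes' differences was not tested.

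Kcnj9 stood at 262 and 200.3 CPM in cortex, against 97.1 and 121 in hippocampus. Its log2 fold change was -1.09 ± 0.29 (SE), with an edgeR adjusted p of 0.0921. Both cortex libraries stood above both hippocampus libraries. The amount of peak sequence counted also differed: the peaks at Kcnj9 spanned 22.6, 8.46, 11 and 10.4 kb in the same order, and in cortex replicate 1 they formed a single peak that runs past the 10.8-kb window. Over common regions the log2 fold change was -0.36. Counting only peaks that touch the 2 kb to each side of the gene start, it was -2.02. Peaks count whole, so cortex replicate 1 kept its single long peak there, while the other libraries had 4 to 6 peaks at the gene. The value of -2.02 therefore does not show that the difference lies at the start. The adjusted p was 0.0340 without cortex replicate 1 and 0.00027 without cortex replicate 2, but 1.0 without hippocampus replicate 1 and 0.976 without hippocampus replicate 2. It was 1.0 with TMM scaling and over common regions, and 0.00718 by DESeq2.

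The region just upstream of the Kcnj9 start is shown because the fold change was larger when only whole peaks near the start were counted. It is read on the gene's strand from RefSeq sequence of GRCm38 at chr1:172329323-172329572 (minus strand), and capitals mark the only match there to the MEF2 motif.
Kcnj9 promoter: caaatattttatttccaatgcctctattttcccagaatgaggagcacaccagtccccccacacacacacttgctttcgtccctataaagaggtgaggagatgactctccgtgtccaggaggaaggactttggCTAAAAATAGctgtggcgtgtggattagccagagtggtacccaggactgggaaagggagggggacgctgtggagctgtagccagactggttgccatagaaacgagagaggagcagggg
The motifs searched on both strands were chosen after the values were seen: TAATTA (homeobox), TGANTCA (AP-1), CAGCTG (an E-box), AGGTCA (a nuclear receptor half-site) and the MEF2 motif, which is CTA, any 4 bases and then TAG. Matches of different motifs may overlap, and each was counted. A match is a description of the letters, not evidence of binding. The MEF2 letters occur in 3.20% of 32851 RefSeq promoters of this length. RefSeq promoters were found for 69 of the 94 members (94 promoters). Their median GC content was 58.6%, against 52.4% over all promoters, and 23.4% held the E-box, against 13%. The homeobox letters were in none of the 94, against 4.84%. AP-1, the half-site and MEF2 letters were in 4.26%, 6.38% and 2.13% of them, against 6.75%, 14.0% and 3.20%.

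Kcnf1 codes for a silent subunit that pairs with Kcnb channels. Its level was 34.8 and 26.7 CPM in cortex and 8.98 and 16.7 in hippocampus, a log2 fold change of -1.26 ± 0.38 (adjusted p = 0.245, edgeR). The peaks at Kcnf1 spanned 4.43 kb in cortex replicate 1 and 1.39 to 1.48 kb in the other 3 libraries, and over common regions the fold change was -1.14. Kcnk12, a two-pore channel that is silent or weakly active on its own, had 149 and 121 CPM in cortex and 74.1 and 86.4 in hippocampus (-0.75 ± 0.31). For these 3 genes the groups did not overlap, as was so for Kcnk15 (33.5 and 34.6 against 19.2 and 19.6 CPM) and Kcnj12 (79.8 and 92.4 against 46.3 and 55.4).

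Of the members higher in hippocampus, 3 had the smallest p. Kcnu1 had 15.8 and 20.0 CPM in cortex and 38.0 and 21.7 in hippocampus (0.74 ± 0.36), and Kcnk13, a two-pore channel known from microglia, had 32.0 and 26.0 against 44.0 and 44.9 (0.61 ± 0.34). Kcnd3, an A-type channel of interneurons, had 298 and 179 against 321 and 334 (0.46 ± 0.28). Their adjusted p was 1.0 each. The Kcnd3 difference was -0.02 over regions covered to at least 50% in every library, and 0.87 (adjusted p = 0.0275) without cortex replicate 1. Peaks at this gene spanned 7.50 kb in cortex replicate 2 and 29.0 to 39.5 kb in the other libraries. Microglial marker genes summed to 204 to 265 CPM in cortex and 212 to 237 in hippocampus. Kcnc1, Kcnc2, Kcna1 and Kcna2, known from fast-spiking cells, did not pass, with log2 fold changes of -0.04 ± 0.28 for Kcnc1, 0.32 ± 0.34 for Kcnc2, -0.32 ± 0.34 for Kcna1 and -0.21 ± 0.33 for Kcna2. The M-current genes Kcnq3 and Kcnq5 had -0.42 and -0.16. Kcnd2 had -0.42, Kcnip1 -0.53, Kcnmb2 0.33, Kcnab1 -0.07 and Kcnj10 0.39, none past the threshold.

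**Figure D2:**
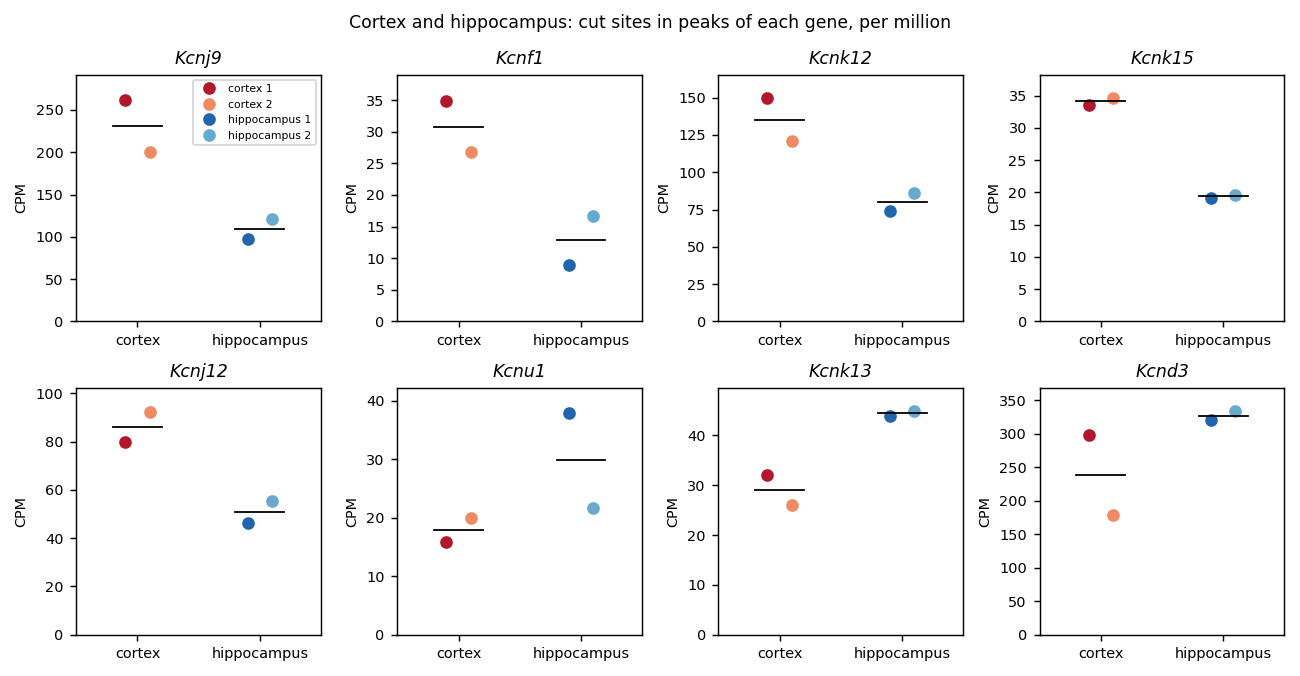
CPM of 8 Kcn genes (y axis, from 0) in the 2 cortex and 2 hippocampus libraries, with 1 point per library and a line at each group's mean. In the first 5 genes both cortex points lie above both hippocampus points, and in Kcnu1, Kcnk13 and Kcnd3 both hippocampus points lie higher.

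The second comparison sorted nuclei by the accessibility of an interneuron marker gene. A nucleus entered the Pvalb, Sst or Lamp5 count gate when that gene's window held at least 4 cut sites and more than its depth predicted (one-sided Poisson p under 0.01), with no other marker past that limit. Vip could not be used: its window held no peak in either hippocampus library and 536 and 63 bp of peak in the cortex libraries. The 3 gates held 194, 145 and 88 nuclei (Pvalb, Sst, Lamp5) in cortex replicate 1, 39, 25 and 2 in cortex replicate 2, 154, 26 and 101 in hippocampus replicate 1, and 56, 16 and 61 in hippocampus replicate 2. Values of the Lamp5 gate in cortex replicate 2 thus rest on 2 nuclei. Each gate was compared with the mean of the other 2 over 12 sums of nuclei, with library as a block. The 3 contrasts use the same sums, so a gene that is high in one gate tends to be low in another. Because the gates were small, a broad gate was added after the data had been seen, which took nuclei with at least 2 cut sites in one marker and none in the others (100 to 601 nuclei per gate and library).

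The gates were checked with marker genes that did not define them. In the Sst count gate 2 of 4 Sst-class markers tested (Elfn1, 0.78, and Grin3a, 0.58, log2) and 1 of 4 MGE-lineage markers (Satb1, 0.51) rose. Reln rose by 0.79. Cbln4 and Chodl, also Sst-class markers, did not pass. Cbln4 had 37.2, 6.78, 16.4 and 35.3 CPM in the Sst gate of cortex replicates 1 and 2 and hippocampus replicates 1 and 2. In the Pvalb gate it had 31.9, 22.7, 34.9 and 45.9. In the Pvalb count gate 1 of 4 MGE-lineage markers tested (Sox6, 0.43) rose, whereas Elfn1, Grin3a and Reln fell. In the Lamp5 count gate 1 of 5 Lamp5-class markers tested (Id2, 0.74) and 1 of 4 CGE-lineage markers (Adarb2, 0.69) rose, and Satb1 fell. Ndnf, Cplx3, Lsp1 and Reln, also Lamp5-class markers, did not pass there, and of these Cplx3 rose with the broad gate. None of the other 5 Pvalb-class markers passed the threshold in the Pvalb count gate. Cemip, Pthlh and Tac1 did with the broad gate.

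In the Pvalb count gate 5 of 72 members tested (6.94%) passed the threshold, against 1.57% of 14554 genes, and 15 had an unadjusted p under 0.05 (20.8%, against 9.34%). Those higher in the gate were Kcng4, Kcnc1 and Kcnab1 (background 0.928%), and those lower were Kcnc4 and Kcnn3 (0.646%). Kcng4 codes for a silent subunit that modifies Kcnb channels. It had 29.6, 24.9, 34.5 and 25.2 CPM in the Pvalb gate of cortex replicates 1 and 2 and hippocampus replicates 1 and 2. In the Sst gate it had 6.75, 10.2, 14.6 and 2.94, so these 2 gates did not overlap. Outside cortex replicate 1 the Sst gate held only 294857 to 549298 cut sites per library in all. Low CPM values there, of this gene and of later genes and regions, rest on few cut sites. The Lamp5 gate had 25.5, 68.5, 15.2 and 27.9, where 68.5 stands for 2 cut sites. The log2 fold change of the Pvalb gate was 1.06 ± 0.27 (edgeR adjusted p = 0.0108). Kcnc1 had 376, 227, 298 and 287 CPM in the Pvalb gate, 230, 153, 162 and 268 in the Sst gate and 280, 308, 243 and 267 in the Lamp5 gate. In every library it was higher in the Pvalb than in the Sst gate, and its fold change was 0.43 ± 0.10 (adjusted p = 0.00382). Kcnab1, a beta subunit that speeds inactivation of Kcna channels, had 245, 150, 213 and 179 CPM in the Pvalb gate and 133 to 202 in the other gates and libraries (0.40 ± 0.11, adjusted p = 0.0350). These 3 were on the higher side in 3 of 4 libraries only.

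Kcnn3, a small-conductance calcium-activated channel, had 48.6, 49.9, 76.4 and 37.8 CPM in the Pvalb gate. It had 68.0, 61.0, 91.0 and 79.5 in the Sst gate and 87.7, 68.5, 106 and 91.9 in the Lamp5 gate. In each library the order was Pvalb, Sst and Lamp5 from low to high. The Lamp5 value of cortex replicate 2 rests on 2 nuclei, so the order in that library is not firm. The Pvalb fold change was -0.63 ± 0.16 (edgeR adjusted p = 0.0122). Kcnc4, a fast inactivating member of the Kcnc family, was lower in the Pvalb gate of every library than the mean of the other gates (-0.78 ± 0.22, adjusted p = 0.0358), with 28.4, 4.54, 25.4 and 23.4 CPM. It had 57.6, 30.5, 23.7 and 53.0 in the Sst gate. So 2 genes of the same family, Kcnc1 and Kcnc4, moved in opposite directions. Kcnc2 did not pass the threshold in the Pvalb gate, with a fold change of 0.20 ± 0.15.

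In the Sst count gate 7 members (9.72%) passed, against 1.77% of all genes, 2 of them higher (background 0.79%) and 5 lower (0.983%), and 14 had an unadjusted p under 0.05 (19.4%, against 9.35%). All 7 lay on the same side in the 4 libraries. Kcnd2, the pore subunit of a somatodendritic A-type current, had 150, 78.0, 126 and 103 CPM in the Sst gate, against 101, 54.4, 63.4 and 71.9 in the Pvalb gate and 104, 0, 57.3 and 32.5 in the Lamp5 gate (0.77 ± 0.16, adjusted p = 0.000464). Kcnf1 had 43.4, 23.7, 18.2 and 23.6 CPM in the Sst gate and 24.3, 6.80, 9.51 and 7.19 in the Pvalb gate (1.05 ± 0.32, adjusted p = 0.0497). Its 2 hippocampus values in the Sst gate exceeded those of the other gates in hippocampus, although the whole hippocampus libraries held less than the cortex libraries.

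The genes that fell in the Sst gate included inward rectifiers and the fast delayed rectifier Kcnc1. Kcng4 fell by 1.67 ± 0.34 (adjusted p = 0.000464) and Kcnc1 by 0.45 ± 0.11 (0.00710), the same genes that were higher in the Pvalb gate. Kcnj4 fell by 0.69 ± 0.16 (0.00413), from 122, 172, 63.8 and 89.9 CPM in the Pvalb gate to 64.4, 54.3, 61.9 and 91.3 in the Sst gate. Its 2 hippocampus libraries had nearly equal values in those gates. Kcnj6, a G protein-gated rectifier, fell by 0.39 ± 0.11 (0.0182), with 177, 268, 291 and 250 CPM in the Sst gate against 285, 352, 378 and 289 in the Pvalb gate. Kcnn2, a small-conductance channel, fell by 0.46 ± 0.13 (0.0386) to 150, 129, 85.6 and 118 CPM, from 185, 186, 126 and 157 in the Pvalb gate. The Lamp5 count gate called no member by edgeR or by DESeq2, where 0.275% of genes passed. At an unadjusted p under 0.05 it had 10 of 72 members (13.9%), against 5.58% of all genes.

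The count gate calls rested on the deepest library. Without cortex replicate 1 no member passed in any gate. Without hippocampus replicate 1 none passed in the Pvalb gate and 2 in the Sst gate, and without hippocampus replicate 2 the Pvalb gate had 2. In cortex replicate 1 the Pvalb, Sst and Lamp5 gates held 11670081, 7852191 and 5019100 cut sites, and in the other libraries 29187 to 2838664. Their median nuclei had 57369, 53605 and 50512 cut sites, against 45597 in ungated nuclei of that library. The part of depth in the calls was not tested.

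**Figure D3:**
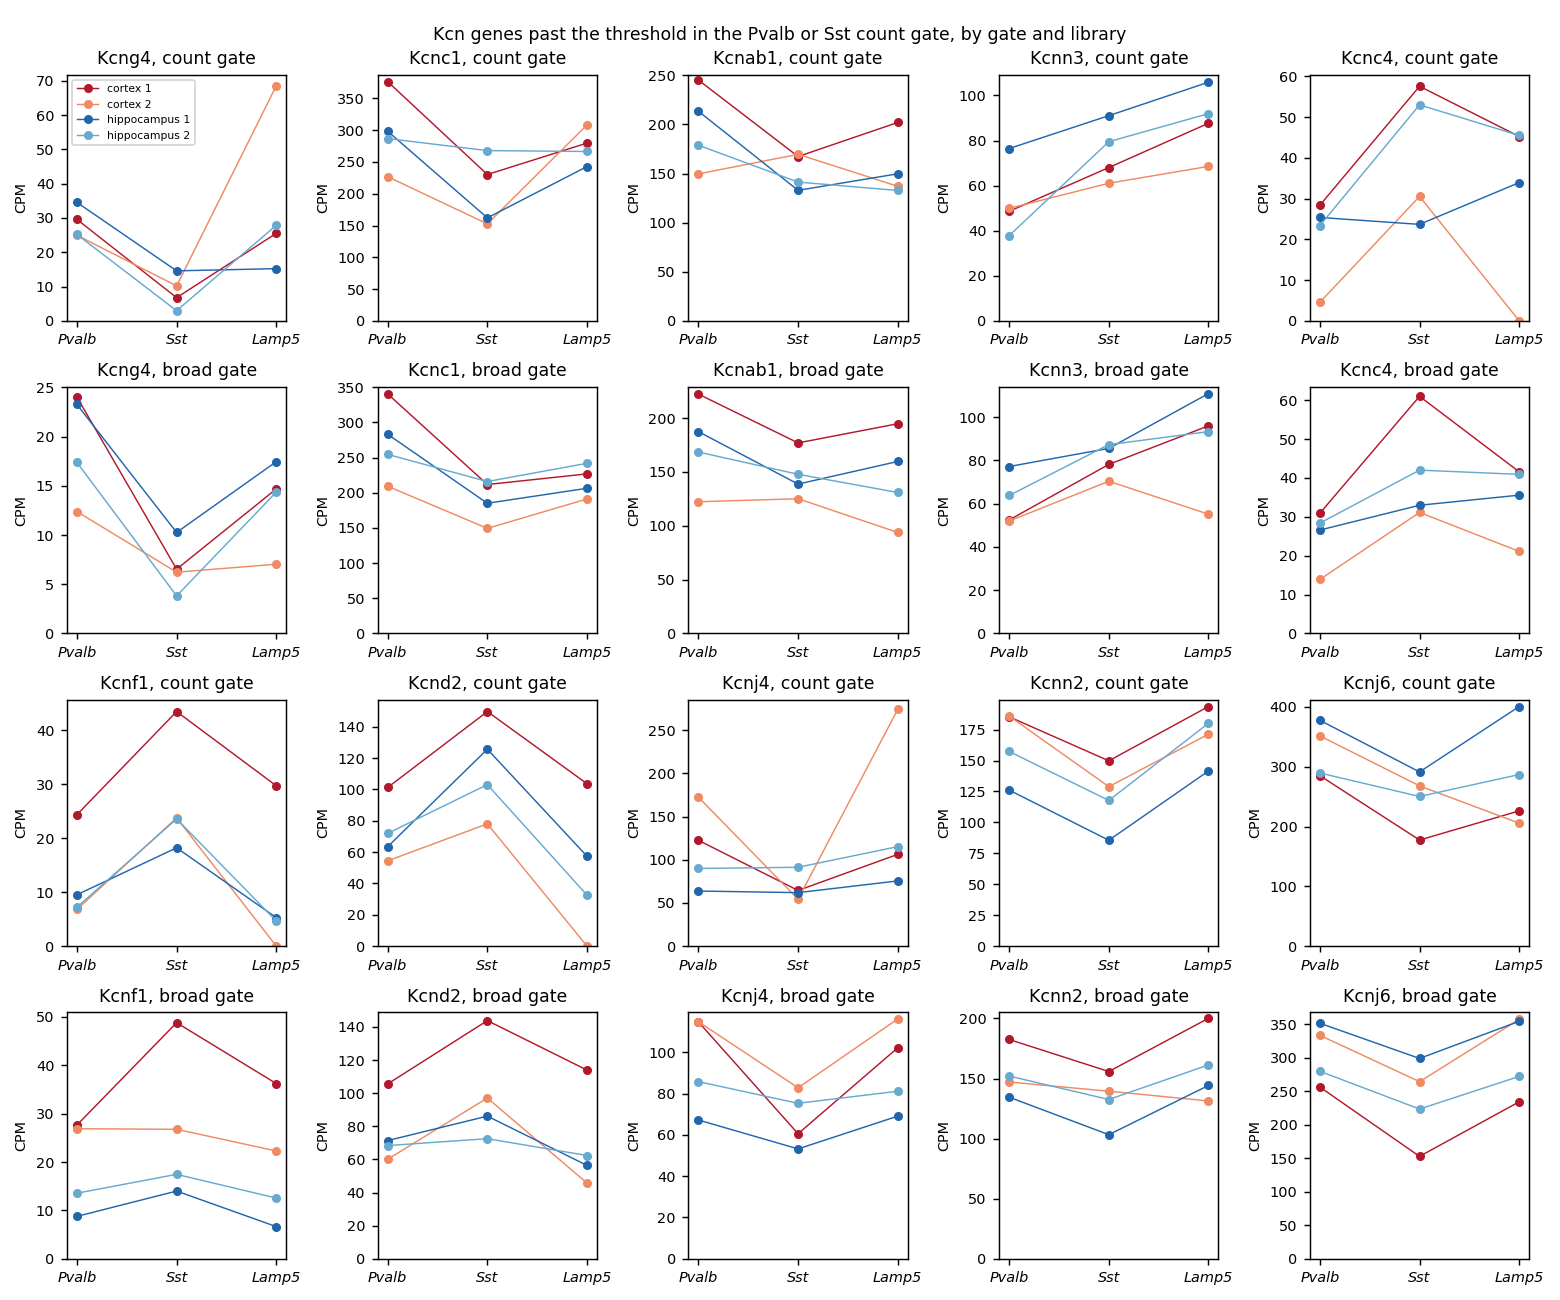
CPM of the 10 Kcn genes past the threshold in the Pvalb or Sst count gate (y axis, from 0), by gate (x axis) and library (lines), for the count gate and the broad gate. Kcng4, Kcnc1 and Kcnj6 are lower in the Sst than in the Pvalb gate in every library under both gates, and the Lamp5 count gate of cortex replicate 2 rests on 2 nuclei.

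Under the broad gate, 83 members and 16071 genes were tested and more members passed: 15 in the Pvalb gate (18.1%, against 6.43% of all genes), 17 in the Sst gate (20.5%, against 7.88%) and 11 in the Lamp5 gate (13.3%, against 4.83%). All 5 Pvalb calls and all 7 Sst calls of the count gate were among them, in the same direction. This is not independent support, since many nuclei are in both gates. Without cortex replicate 1 the counts fell to 4, 6 and 5, and the Lamp5 count was also 5 without either hippocampus library. The Sst count was 11 without hippocampus replicate 1. Kcnc1, Kcnc4, Kcng4 and Kcnn3 passed in the Pvalb gate whichever library was left out, as did Kcnc1, Kcnd2, Kcng4, Kcnh1 and Kcnj6 in the Sst gate and Kcnk10 and Kcnma1 in the Lamp5 gate.

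In the broad Pvalb gate 11 members were higher (background 3.91%) and 4 lower (2.53%). Kcnc1 had 340, 209, 283 and 255 CPM in the Pvalb gate and 149 to 242 in the other gates and libraries (0.43 ± 0.06). Kcng4 had 24.0, 12.4, 23.3 and 17.4, against 6.53, 6.22, 10.3 and 3.82 in the Sst gate (1.01 ± 0.16), and in each library the Lamp5 gate lay between them. The auxiliary subunit Kcne4 passed as well (1.2 ± 0.31), though it had no cut sites in cortex replicate 2. Over all nuclei it had only 467 cut sites in cortex replicate 1 and 241 and 154 in the hippocampus libraries. Also higher were the two-pore channel Kcnk3 (0.42 ± 0.08), the voltage-gated Kcnh5 (0.39 ± 0.08), Kcnip2 (0.33 ± 0.08) and the beta subunit Kcnab1 (0.26 ± 0.06). The rest were the inward rectifiers Kcnj12, Kcnj4, Kcnj6 and Kcnj9 (0.30, 0.30, 0.22 and 0.21). Of the 12 inward rectifiers tested, 4 thus passed as higher and none as lower. The 12 log2 fold changes had a median of 0.20, with 10 above 0 and 2 below. The lower genes were Kcnc4 (-0.61 ± 0.11), Kcnn3 (-0.50 ± 0.08), the sodium-activated Kcnt2 (-0.46 ± 0.11) and the A-type channel Kcna4 (-0.41 ± 0.13).

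In the broad Sst gate 7 members were higher (background 3.9%) and 10 lower (3.98%). Those higher were Kcnf1 (0.53 ± 0.15), Kcnc4 (0.50 ± 0.12), Kcnh4 (0.46 ± 0.11), Kcnd2 (0.43 ± 0.08), the BK beta subunits Kcnmb4 (0.35 ± 0.10) and Kcnmb2 (0.18 ± 0.06), and the two-pore channel Kcnk10 (0.27 ± 0.08). Kcnh4 overlaps Hcrt. Besides the 5 genes of the count gate, Kcnk3 (-0.44 ± 0.09), Kcng2 (-0.36 ± 0.09), Kcnh1 (-0.32 ± 0.06), Kcnq5 (-0.26 ± 0.07) and Kcnj9 (-0.26 ± 0.06) were lower. Kcng4, Kcnk3, Kcnc1, Kcnj4, Kcnj6 and Kcnj9 were therefore high in the Pvalb gate and low in the Sst gate, and Kcnc4 the reverse.

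In the broad Lamp5 gate 4 members were higher (background 2.58%) and 7 lower (2.25%). Kcnip3, a calcium-binding partner of A-type channels, rose by 0.44 ± 0.09, Kcnn3 by 0.39 ± 0.08, the silent subunit Kcng2 by 0.38 ± 0.08 and the slow delayed rectifier Kcnh1 by 0.20 ± 0.06. Kcnh5, a relative of Kcnh1, fell by 0.39 ± 0.09, and Kcnk10 fell by as much (0.39 ± 0.08). The BK channel gene Kcnma1 fell by 0.29 ± 0.05 and the beta subunit genes Kcnmb4 and Kcnmb2 by 0.34 ± 0.10 and 0.25 ± 0.06. Kcnd2 fell by 0.30 ± 0.09 and Kcnk12 by 0.28 ± 0.07. Of these 11 genes, Kcnk10 and Kcnma1 passed whichever library was left out. Kcnc2, Kcna1, Kcna2, Kcnq3, Kcnip1 and Kcnj10 passed in no gate under either gating, with log2 fold changes from -0.32 to 0.32.

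**Figure D4:**
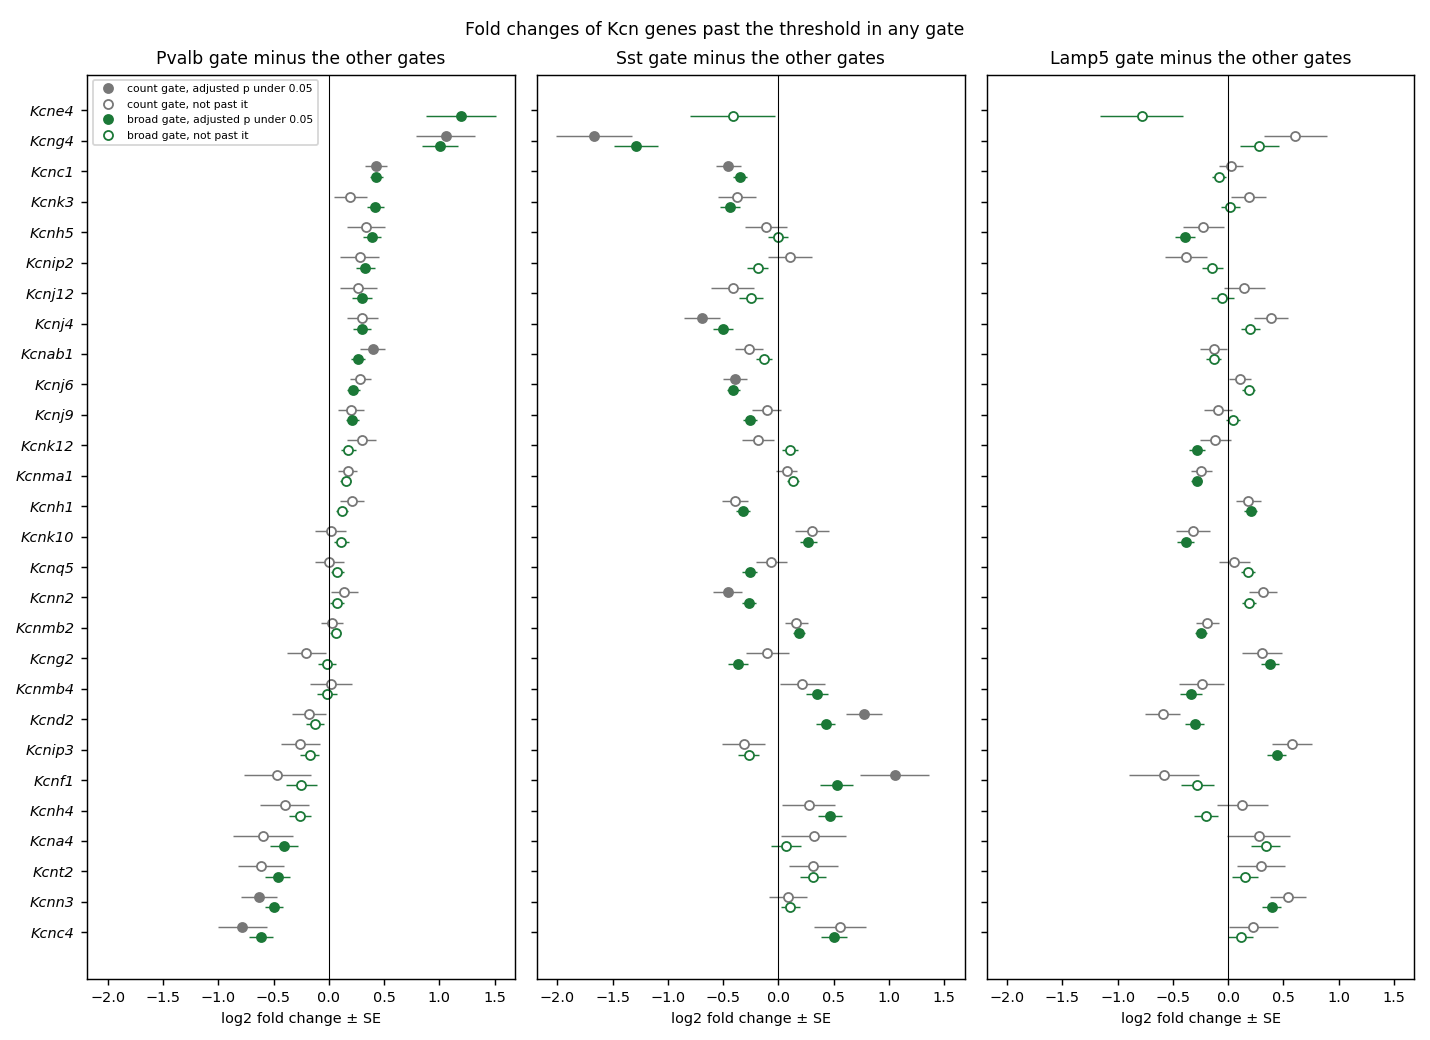
Log2 fold change of each gate against the mean of the other gates (x axis, bars ± SE) for the 28 Kcn genes past the threshold in any gate, with filled points past an adjusted p of 0.05. Kcng4 reaches 1.06 in the Pvalb and -1.67 in the Sst count gate, and no filled grey point appears in the Lamp5 panel.

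Brain region and gate were then looked at together. Within the count gates no member passed between cortex and hippocampus (background 0.066%, 0.0168% and 0.254% in the Pvalb, Sst and Lamp5 gates, edgeR), and at an unadjusted p under 0.05 there were 9, 6 and 1 members (backgrounds 3.35%, 2.97% and 2.15%). DESeq2 called 1, in the Pvalb gate. Without cortex replicate 1, cortex replicate 2 or hippocampus replicate 2, edgeR called 3, 4 and 2 over the 3 gates. Kcnj9 had 289 and 261 CPM in the cortex Pvalb gates and 107 and 130 in those of hippocampus. In the Lamp5 gate it had 279 and 343 against 84.2 and 106, where 343 rests on 2 nuclei of cortex replicate 2. In the Sst gate, 241 and 187 stood against 69.2 and 200.2, and the groups overlapped. The log2 fold changes were -1.21 ± 0.32, -1.63 ± 0.43 and -0.72 ± 0.39, with adjusted p of 0.160, 0.0602 and 1.0. The gated nuclei are part of the whole libraries, so medians within gates are not an independent repeat of those above. For the inward rectifiers they were -0.83 in Pvalb (10 tested), -0.72 in Sst (7) and -0.45 in Lamp5 (8), beside -0.09, -0.06 and -0.02 over all genes. The two-pore genes had -0.33, -0.78 and -0.57 (11, 9 and 10 tested). Whether the gates differ in another way in each brain region was tested as an interaction. With the count gate it passed for 0 genes by edgeR (0%) and for 0 by DESeq2, and 219 genes (1.5%) and 2 members had an unadjusted p under 0.05 by edgeR. For the broad gate it passed for 25 genes (0.156%) and no member. The 2 members of the count gate were Kcnd3 and Kcnj4, with unadjusted p of 0.0174 and 0.0307.

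Channel partners that lack the Kcn prefix were read from the same fits. Of 12 such genes (Dpp6, Dpp10, Amigo1, Lrrc26, Lrrc38, Lrrc52, Lrrc55, Abcc8, Abcc9, Cntnap2, Cntn2 and Lgi1), 1 passed in the count gates, Lrrc38, a BK gamma subunit, in the Pvalb gate (1.22 ± 0.36, adjusted p = 0.0491). Its Pvalb gate values were 46.9, 0, 1.41 and 9.89 CPM, and cortex replicate 1 carried nearly all of it. Under the broad gate 6 of 36 gene and gate combinations passed: Lrrc38 (1.16) and Lrrc52 (0.60) rose in the Pvalb gate, the A-type channel partner Dpp10 (0.22) and Cntnap2 (0.19), which clusters Kcna channels on axons, rose in the Sst gate, Abcc8 (-0.36), the sulfonylurea receptor, fell in the Sst gate and Lrrc52 (-0.76) fell in the Lamp5 gate. None passed without cortex replicate 1.

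Common regions were then tested one by one. Of 349 common regions overlapping a member, 227 in 68 genes could be tested among 31231 regions. The Pvalb count gate had 11 higher and 2 lower (4.85% and 0.881%, against 1.92% and 0.999% of all regions). The Sst count gate had 5 higher and 6 lower (backgrounds 2.81% and 2.06%), 4.85% in all, which is close to the 4.87% of all regions. The Lamp5 gate had none by edgeR (background 0.877%), with 24 at an unadjusted p under 0.05 (10.6%, against 8.34%). Introns held 10 of the 13 Pvalb regions and 6 of the 11 Sst regions, while 132 of the 227 tested regions were intronic. In place of 24 calls, without cortex replicate 1 there were 2 and without hippocampus replicate 1 there were 9.

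Kcng4 had 1 common region, at its start, so no other part of the gene was tested. This region, chr8:119634497-119636197, had 29.6, 22.7, 24.3 and 25.2 CPM in the Pvalb gate and 6.75, 0, 14.6 and 2.94 in the Sst gate (1.03 ± 0.29 in the Pvalb contrast and -1.75 ± 0.37 in the Sst contrast, adjusted p = 0.0233 and 0.000402). The region at the start of Kcnc1, chr7:46395978-46411054, rose by 0.56 ± 0.14 in the Pvalb gate and fell by 0.61 ± 0.16 in the Sst gate. The merged region that covers the start of Kcnf1 rose by 1.09 ± 0.33 in the Sst gate. That start lay in a peak of cortex replicate 1 only, so the rise cannot be placed at the start. The RefSeq promoter of Kcng4 lies inside its region, at chr8:119635681-119635930 (minus strand), and is shown for that reason. Capitals mark the E-box CAGCTG, which 13% of all promoters hold.
Kcng4 promoter: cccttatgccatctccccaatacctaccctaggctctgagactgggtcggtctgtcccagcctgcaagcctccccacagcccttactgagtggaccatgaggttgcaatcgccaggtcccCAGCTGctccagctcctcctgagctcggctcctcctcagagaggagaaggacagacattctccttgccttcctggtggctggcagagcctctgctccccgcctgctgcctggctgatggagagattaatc

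Introns of Kcnj6, Kcnd3 and Kcnmb2 also held regions that passed. An intronic region of Kcnj6, chr16:94826030-94827836, 171 kb from the gene start, had 42.8, 86.2, 47.9 and 51.2 CPM in the Pvalb gate and 13.1, 13.6, 14.6 and 17.7 in the Sst gate. The groups did not overlap, and the Sst contrast (-1.42 ± 0.27, adjusted p = 5.2e-05) passed whichever library was left out. In Kcnd3 an intronic region at chr3:105528726-105531280 had the opposite order, with 8.83, 4.54, 10.9 and 17.1 CPM in the Pvalb gate and 41.4, 44.1, 34.6 and 35.3 in the Sst gate (1.46 ± 0.29 in the Sst contrast, adjusted p = 0.000127), although the gene as a whole passed in neither gate. Kcnmb2, the BK beta subunit that gives inactivation, held regions of both kinds. At chr3:32147479-32148212, 245 kb from the start, the Sst gate had 14.5, 27.1, 18.2 and 32.4 CPM and the Pvalb gate 4.71, 0, 2.82 and 0 (2.02 ± 0.44 in the Sst contrast, adjusted p = 0.000713). At chr3:32070906-32072340, 169 kb from the start, the Pvalb gate had 10.0, 15.9, 13.7 and 8.99 CPM and the Sst gate 1.40, 0, 0 and 14.7, above the Pvalb gate in hippocampus replicate 2 (1.72 ± 0.46 in the Pvalb contrast, adjusted p = 0.0127). In the broad gates the fold changes of these last 2 contrasts were 0.84 ± 0.21 and 1.05 ± 0.25, both past the threshold. Summed over the gene, Kcnmb2 had fold changes of 0.03 in the Pvalb count gate and 0.16 in the Sst count gate, neither past the threshold.

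The middle 200 bases of the stretch that peaks of all 4 libraries share are shown for these regions, so that they can be compared (GRCm38, plus strand). Capitals mark matches to the motifs named above, on either strand.
Kcnj6 chr16:94827236-94827435, high in the Pvalb gate: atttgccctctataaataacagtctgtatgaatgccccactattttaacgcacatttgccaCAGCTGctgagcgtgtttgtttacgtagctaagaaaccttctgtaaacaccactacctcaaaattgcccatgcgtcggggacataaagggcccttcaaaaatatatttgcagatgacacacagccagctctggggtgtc
Kcnmb2 chr3:32071915-32072114, higher in the Pvalb than the Sst gate in 3 of 4 libraries: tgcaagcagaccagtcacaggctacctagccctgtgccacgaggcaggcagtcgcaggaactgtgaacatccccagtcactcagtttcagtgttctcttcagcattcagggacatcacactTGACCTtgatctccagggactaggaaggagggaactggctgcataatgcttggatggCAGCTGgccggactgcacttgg
Kcnd3 chr3:105530798-105530997, high in the Sst gate: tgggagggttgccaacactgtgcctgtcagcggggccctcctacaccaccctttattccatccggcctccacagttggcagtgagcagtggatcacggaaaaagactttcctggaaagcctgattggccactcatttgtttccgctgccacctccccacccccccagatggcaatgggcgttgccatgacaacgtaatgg
Kcnmb2 chr3:32147744-32147943, high in the Sst gate: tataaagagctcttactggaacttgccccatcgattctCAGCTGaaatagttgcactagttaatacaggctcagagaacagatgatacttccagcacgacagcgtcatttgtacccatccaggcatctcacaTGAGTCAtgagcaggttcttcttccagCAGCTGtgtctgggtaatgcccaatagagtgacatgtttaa
The Kcnj6 window held 1 E-box, the first Kcnmb2 window 1 E-box and 1 half-site, and the Kcnd3 window none of the 5 motifs. The second Kcnmb2 window held 2 E-boxes and 1 AP-1 match. Of all 46698 common regions, 24.8% held the E-box, 9.77% the AP-1 letters and 7.69% the half-site in a window of this length, and none of these motifs was in both Pvalb windows and in neither Sst window.

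Other regions named by size were in Kcnh1 and Kcnh2, voltage-gated channels of the EAG family, and in Kcnab1. A Kcnh1 intron region at chr1:192342825-192343678 fell by 2.29 ± 0.55 in the Sst gate, from 9.85, 6.80, 9.51 and 11.7 CPM in the Pvalb gate to 1.27, 0, 3.64 and 0. A second one at chr1:192444312-192445946 fell by 1.71 ± 0.50. Kcnh1 overlaps Hhat. The Kcnab1 region at chr3:65298861-65299726, which overlaps a coding exon, rose by 1.49 ± 0.42 in the Pvalb gate, and a Kcnh2 intron region at chr5:24337159-24339052 rose by 1.45 ± 0.41. Under the broad gate, 349 member regions could be tested, and 57, 70 and 44 passed in the Pvalb, Sst and Lamp5 gates, which is 16.3%, 20.1% and 12.6%, against 13.1%, 17.9% and 12% of all regions. Kcnmb2, Kcnma1 and Kcnab1 were among the genes with regions called in both directions in the broad Pvalb gate (3 higher and 1 lower, 6 and 1, and 6 and 1).

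**Figure D5:**
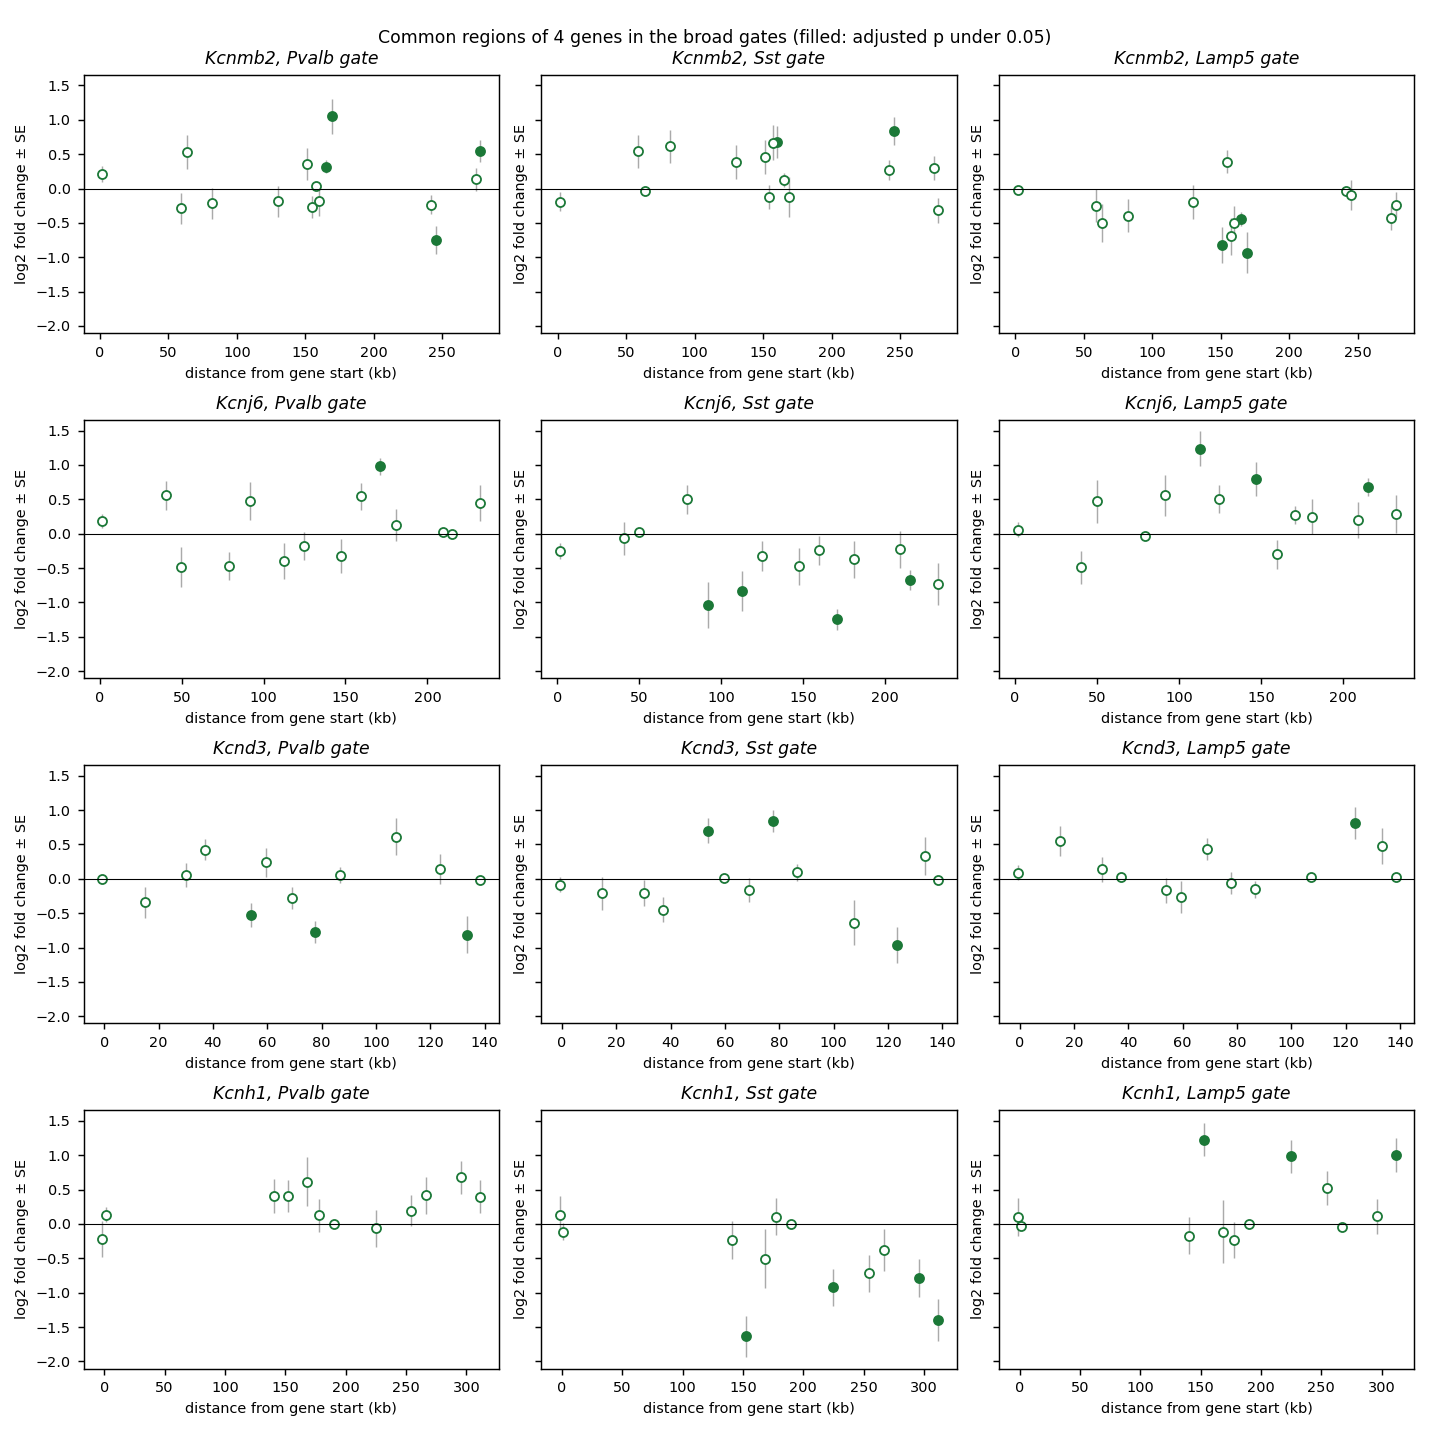
Log2 fold change in the broad gates (y axis, bars ± SE) of the common regions of Kcnmb2, Kcnj6, Kcnd3 and Kcnh1 by distance from the gene start in kb (x axis), filled where the adjusted p was under 0.05. Filled points lie on both sides of 0 in Kcnmb2 in the Pvalb gate, whereas those of Kcnh1 in the Sst gate all lie below it.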

How the data were processed

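Single-nucleus accessible chromatin was measured in 4 libraries, 2 of cortex and 2 of hippocampus. The authors deposited, for each library, raw counts of cut sites per peak and barcode, with peaks called per library and no normalization. Per the labels, Cell Ranger ATAC 1.2.0 and the build GRCm38 (mm10) were used. The aligner and peak settings are not given in the sources used here. The members, gene lists and tests were chosen with earlier results of these data known.

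Counts were summed over nuclei per library, or per library and gate, since nuclei are not replicates. A peak overlapping a gene body or its 2 kb upstream by at least 1 bp counted whole. Genes were tested with edgeR 4.0.16 in R 4.3.3 (robust quasi-likelihood F test, two-sided, filterByExpr, library totals, prior count 2 for log2 fold changes), and p-values were adjusted by Benjamini-Hochberg over all genes or regions tested, with a threshold of 0.05. SE is the fold change divided by the square root of F. DESeq2 1.42.0 was the alternative tool, where adjusted p given as NA stayed NA. The scripts were tested on simulated data. No doublet caller was run. With 2 libraries against 2, precision rests on few samples.

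Gates were planned for 4 marker genes. The Vip count gate held 15 nuclei in cortex replicate 1 and none elsewhere, so its contrast could not be fitted and 3 gates were used. The planned contrast of Pvalb and Sst against Vip and Lamp5 then equals the Lamp5 contrast with its sign turned and is not given separately. The broad gate and the motifs were added after the data had been seen.

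Genes named were, between brain regions, where none passed, those 3 of each direction whose p was smallest. In the gates they were the 6 largest changes in each direction among calls on the same side in all 4 libraries. A fixed list was added, with Kcnc1, Kcnc2, Kcna1, Kcna2, Kcnab1, Kcnq3, Kcnq5, Kcnd2, Kcnip1, Kcnmb2 and Kcnj10. For levels they were the 3 highest and 3 lowest per kb in each role group, and for regions the 4 largest changes per gate. Some genes that these rules name are not reported here. Kcng4 in the Pvalb gate, Kcnk15 and Kcnj12 between brain regions, all broad gate calls and the further regions of Kcnj6, Kcnd3, Kcnc1 and Kcnf1 were named after their values were seen. Alternatives were TMM scaling, common regions, regions covered to at least 50% in every library, cut sites within 2 kb of the gene start, no filter on low counts, DESeq2, a stricter gate, no library block, nuclei without the deepest 10%, and each library left out. Sequences are from RefSeq tables and the genome of GRCm38.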

Additional observations from a re-analysis of the deposited data

How the results depend on the processing

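The counts of members called between brain regions depended on the tool and the library: 0 with edgeR, 4 with DESeq2, and 0 to 6 when a library was left out (6 without cortex replicate 1). Fits that leave 1 library in a group assume that it varies like the others. The 5 calls of the Pvalb count gate became 3 with TMM, 1 within 2 kb of the gene start, 3 with DESeq2, 2 with a gate p of 0.001, 0 with no library block and 0 to 4 without 1 library. The 7 calls of the Sst count gate became 4, 1 and 4 with the first 3 of these, 3 without the deepest 10% of nuclei, 0 with no library block and 0 to 6 without 1 library. The broad gate called 15, 17 and 11 members in the Pvalb, Sst and Lamp5 gates, 15, 17 and 11 with TMM, 11, 16 and 10 with DESeq2 and 12, 18 and 13 over common regions. Without 1 library it called 4 to 16, 6 to 18 and 5 to 11. Within gates, the 0 calls between brain regions became 2 around the gene start, 1 with DESeq2 and 0 to 4 without 1 library. The 24 regions became 15 with TMM, 8 with a gate p of 0.001, 171 with the broad gate and 2 to 19 without 1 library. The 1 partner call became 0 under TMM, common regions, the gene start, DESeq2, no filter, a gate p of 0.001, no library block and without the deepest 10%, 0 to 1 without 1 library, and 6 with the broad gate (6 with TMM, 6 with DESeq2, 9 over common regions, 0 to 6 without 1 library). The interaction stayed at 0 members under each alternative run. The cause of these changes was not tested, except that leaving out a library leaves fewer sums. Of single-gene and single-region values under the alternatives, 1042 kept their direction and side of the threshold, 30 passed newly, 82 no longer passed and 1 reversed, Kcnd3 between brain regions over regions covered to at least 50% (-0.0214). Same-numbered libraries were not shown to be pairs (correlation of same-numbered deviations -0.0071 over 14745 genes), and a replicate block gave 0 members between brain regions and within gates. Thinning nuclei to 5000 cut sites left gates empty and was not run. Counting error is largest in the gates of cortex replicate 2, and a 0 there can be few nuclei.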

Other observations

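The Vip gate, which entered no comparison, held 15 nuclei with 791244 cut sites in cortex replicate 1. Of the other Vip-class markers, Prox1 was at 116 CPM, Tac2 at 61.9, Crispld2 at 40.4, Htr3a at 34.1 and Calb2 at 11.4 there, whereas the Pvalb count gate of that library had 29.7, 25.9, 26.1, 8.83 and 11.5. With 1 library there is no replicate check. A count of 49 nuclei in cortex replicate 1 and 5 in cortex replicate 2 passed the broad gate for Vip.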
